A study of Mus musculus with 6 samples.

Results

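The 35 genes described here are expressed in monocytes, macrophages and leukocytes at large, and they were measured in 6 libraries of primary acinar cells from the mouse pancreas. They were taken by symbol from a list chosen with earlier results of these data known, and 35 of 35 had a row among the 23237 distinct symbols of the count tables. For this description they were divided by role into 9 genes typical of resident tissue macrophages, 11 genes of monocytes and recently arrived myeloid cells, 9 genes shared by myeloid cells and 6 genes of nearly every leukocyte. The roles overlap, since a monocyte that enters a tissue takes on macrophage genes. The control group held 3 libraries, labelled wild type. The other group held 3 libraries labelled ERRgamma -/-, a conditional knock-out (cKO) of estrogen-related receptor gamma in acinar cells, and both groups were of strain C57BL/6J. Both groups were cultured in the same supplemented Waymouth's medium. The promoter that drove the deletion, the deleted part, the time in culture, the cell purity and the age and sex of the mice are not stated in the labels. Nothing says that the libraries of a group came from separate animals, so p-values cover only how far these libraries scatter, and that scatter may be technical.

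Macrophages are phagocytes of every tissue, and the pancreas holds them in its stroma and around its acini. Some are long-lived resident cells, known for scavenger receptors such as CD206 and CD163 and for their need of the growth factor receptor CSF1R. Others arise from blood monocytes, which carry Ly6C, enter inflamed tissue through the chemokine receptor CCR2 and then change their genes towards those of macrophages. PU.1, the product of Spi1, is the transcription factor on which the myeloid lineage rests. It binds DNA motifs around the letters GGAA, as other factors of the ETS family do.

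Promoter sequences are shown for some of the members, because PU.1 is itself encoded by a member. RefSeq (GRCm38.p6) held promoter entries for 25 of the 35 members, and the 250 bases before the first listed start were searched on both strands. The motif GAGGAAG, a PU.1 type site that contains GGAA, stood in 7 of these 25 windows (28%) and in 10.4% of the windows of all 27025 genes. The shorter GGAA was in 25 of 25 and in 93.4% of all windows. A match is a run of letters and shows no binding. The 4 stretches of 100 bases printed next are those that held the motif. They end at the RefSeq start, or 22 bases (Mrc1) and 6 bases (Fcgr4) before it, where annotated exons reach further. Each reads 5′ to 3′ on the strand of its gene, with the motif in capitals, and in all 4 it stood on the opposite strand, so it is written CTTCCTC. The motif ended 29 bases before the RefSeq start of Mrc1 (chr2:14229292-14229391, plus strand), 34 before that of Trem2 (chr17:48346301-48346400, plus), 49 before that of Fcgr1 (chr3:96293970-96294069, minus) and 16 before that of Fcgr4 (chr1:171018820-171018919, plus).
Mrc1: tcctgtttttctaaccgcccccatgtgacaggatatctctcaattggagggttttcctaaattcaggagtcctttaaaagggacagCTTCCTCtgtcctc
Trem2: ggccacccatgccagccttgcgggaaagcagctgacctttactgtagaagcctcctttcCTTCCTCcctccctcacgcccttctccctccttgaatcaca
Fcgr1: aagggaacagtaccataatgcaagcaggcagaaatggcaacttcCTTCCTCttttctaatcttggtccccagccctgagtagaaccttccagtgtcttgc
Fcgr4: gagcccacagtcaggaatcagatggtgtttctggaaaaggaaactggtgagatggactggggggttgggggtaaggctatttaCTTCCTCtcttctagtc

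The lysozyme genes Lyz1 and Lyz2 are neighbours on chromosome 10 (117287797 to 117292868 and 117277331 to 117282321, minus strand, GRCm38), and they are shown because their counts moved alike and can share reads. The stretches of 100 bases that end 49 bases before their RefSeq starts (chr10:117292918-117293017 and chr10:117282322-117282421) were identical at 80 of 100 positions, and neither 250 base window held GAGGAAG.
Lyz1: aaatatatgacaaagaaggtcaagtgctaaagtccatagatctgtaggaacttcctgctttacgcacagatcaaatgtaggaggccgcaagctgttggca
Lyz2: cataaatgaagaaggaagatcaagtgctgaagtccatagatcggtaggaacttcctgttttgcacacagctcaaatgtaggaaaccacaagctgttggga

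The libraries held 15170173 to 25183465 counts of 3' tags, each tag read near the end of a transcript. Acinar genes took much of the control libraries (25.4 to 26.6% for 14 of them), so the scale matters. Levels are CPM, counts divided by the effective library size in units of 1e6, which TMM scaling sets so that the bulk of genes does not change. The effective size was 7522015 to 8487842 in the control and 33153786 to 59957469 in the cKO libraries. Genes were tested with edgeR's quasi-likelihood test, and "rose" and "fell" mean an adjusted p under 0.05 on this scale, relative to other genes. Of 13132 tested genes, 3152 rose and 2716 fell. On plain library totals these numbers were 12654 and 53, and the median log2 fold change of all tested genes moved from 0.10 to 3.36. Esrrg, the targeted gene, had 0 counts in each control library and 0, 9 and 1 in the cKO libraries. The deleted part is not named and a tag may lie outside it, so these counts check no label.

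All 35 members rose in cKO, on a background of 24% of tested genes that rose. Their log2 fold changes ran from 1.52 to 4.29, with a median of 2.58 beside 0.10 for all tested genes, and their mean levels were 2.88 to 19.6 times as high. Adjusted p-values lay between 6.22e-07 and 0.00937. The 3 cKO libraries stood above the 3 control libraries for 35 of 35 members, which was so for 30.7% of tested genes. The members took 0.0127% (exact 95% interval 0.0123 to 0.0132), 0.0134% (0.013 to 0.0139) and 0.0115% (0.011 to 0.0119) of the counts of control replicates 1, 2 and 3. Their shares in the cKO libraries, in the same order, were 0.93% (0.925 to 0.934), 0.259% (0.256 to 0.261) and 0.831% (0.826 to 0.835). In the control libraries the signal was thus small, with 2639 to 3377 member counts a library, and Apoe alone made up 46.3 to 50.2% of them. In bulk RNA, more cells of a kind and more RNA of a gene per cell cannot be told apart.

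Low control counts limit the sizes of many of these rises. Of the 35 members, 21 passed the filter on low counts in the control libraries themselves, and 21 of 21 rose with a median of 2.31. The other 14 did not pass in the control libraries themselves and needed their cKO counts to be tested. These were Cd163, Ms4a7, Fcgr1, Ly6c2, Lst1, Ms4a6b, Ms4a6c, Ms4a6d, Clec4n, Fcgr2b, Aif1, Ptprc, Coro1a and Cd53. A rise on the TMM scale was not a condition of being tested. The non-member Cxcr2 counted 3, 2 and 3 in the control and 23, 20 and 29 in the cKO libraries. It was tested, with a log2 fold change of 0.53, and did not rise. Zbtb46, also with few control counts (13, 15 and 11), stood at -0.55 and was not called. Both genes were picked as examples, and other non-members with few control counts did rise, such as Camp (4.74 ± 0.73) and Flt3 (5.32 ± 0.93). The part that the filter had in the 14 rises was not tested.

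**Figure D1:**
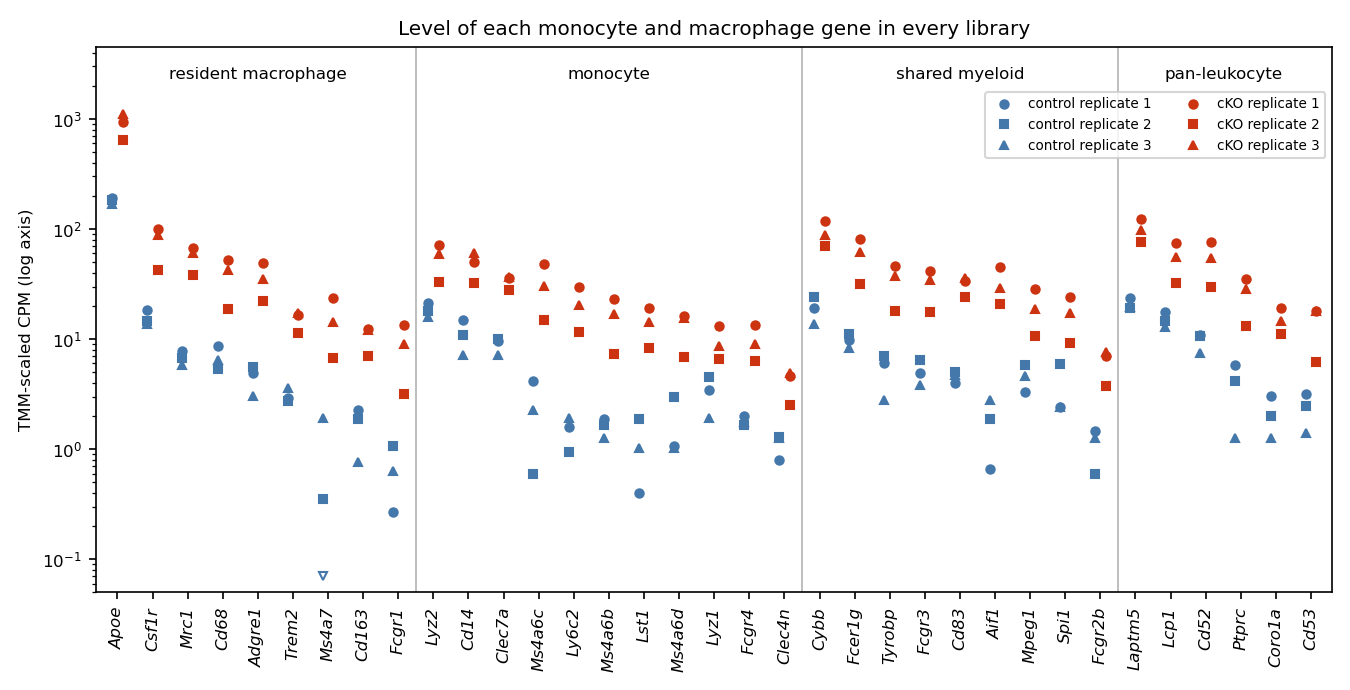
TMM-scaled CPM (log axis) of each of the 35 genes in the 3 control (blue) and 3 cKO (red) libraries, marker shapes giving the replicate, genes grouped by role and ordered by mean level; the open triangle marks a count of 0 (Ms4a7, control replicate 1). In each of the 35 genes the red points lie above the blue, and the red square, cKO replicate 2, is the lowest of the red points in 35 of 35 genes. How many of all tested genes were lowest in that library was not counted.

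Among the resident macrophage genes, Mrc1, which encodes the mannose receptor CD206, had 58, 57 and 46 counts in the control libraries and 3974, 1257 and 3614 in the cKO libraries. It rose by 3.03 ± 0.23 (log2, SE; adjusted p = 6.22e-07), from 6.76 ± 0.935 to 55.0 ± 15.2 CPM (SD, n = 3 each). Its control values were tight and its cKO values were several times higher, with replicate 2 the lowest. Csf1r, the receptor for the macrophage growth factors CSF1 and IL-34, went from 137, 124 and 108 counts to 5962, 1404 and 5241, a rise of 2.31 ± 0.29 (adjusted p = 7.83e-05). Cd68, a glycoprotein of phagocyte lysosomes, went from 65, 45 and 51 to 3127, 624 and 2565 counts, a rise of 2.49 ± 0.38 (adjusted p = 0.000609). Apoe, the lipid carrier apolipoprotein E, counted 1444, 1563 and 1326 in the control and 55956, 21272 and 66763 in the cKO libraries. It rose by 2.31 ± 0.24 (adjusted p = 3.91e-06), from 182 ± 12.0 to 899 ± 239 CPM. Apoe is made by other cells too, stromal cells among them, so it is the least specific of this group.

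The largest changes of the resident group came with the fewest control counts. Ms4a7, a membrane protein of macrophages (chromosome 19, 11321039 to 11336146), counted 0, 3 and 15 in the control and 1391, 223 and 852 in the cKO libraries, a log2 fold change of 4.29 ± 0.90 (adjusted p = 0.00937). That size was 6.29 without control replicate 3, which held most of the control counts, and 3.74 without control replicate 1. Fcgr1, the high-affinity IgG receptor CD64, counted 2, 9 and 5 in the control and 790, 105 and 536 in the cKO libraries, a rise of 3.67 ± 0.62 (adjusted p = 0.000641). Adgre1, which encodes the F4/80 antigen, rose by 2.98, the haemoglobin scavenger receptor gene Cd163 by 2.68 and the lipid receptor gene Trem2 by 2.30. Their control counts ran from 6 to 47 and their cKO counts from 234 to 2924. The gene Csf1r shares exon sequence with Hmgxb3 on the other strand, and the counting strand is not given.

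The monocyte group was the most uneven, with log2 fold changes from 1.52 to 3.80. Ly6c2, part of the Ly6C antigen by which inflammatory monocytes are sorted (chromosome 15, 75108158 to 75111970), counted 12, 8 and 15 in the control and 1770, 384 and 1209 in the cKO libraries. It rose by 3.80 ± 0.39 (adjusted p = 8.97e-06). Of the 50-base words in its last 300 transcript bases, 29.9% are shared with Ly6c1, a gene of endothelial cells, which rose by 1.58 ± 0.18. Reads may thus have moved between these genes. Ms4a6c counted 31, 5 and 18 in the control and 2854, 493 and 1811 in the cKO libraries, a rise of 3.76 ± 0.71 (adjusted p = 0.00711). That rise was 4.46 without control replicate 1 and 3.29 without control replicate 2. The relatives of Ms4a6c in the same cluster on chromosome 19 rose as well, Ms4a6b by 3.31 and Ms4a6d by 2.92. The latter was 3.63 without control replicate 2 and 2.66 without control replicate 3. Ms4a6c shares 9.16% of the 50-base words at its transcript end with Ms4a6b, so some of their reads may have moved between them. Lst1, a small membrane protein of leukocytes, rose by 3.64, or 4.29 without control replicate 2 and 3.26 without control replicate 1.

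The other monocyte genes rose less. Cd14, the lipopolysaccharide co-receptor, counted 113, 93 and 56 in the control and 2998, 1079 and 3613 in the cKO libraries, a rise of 2.12 ± 0.28 (adjusted p = 6.88e-05). Clec7a, the beta-glucan receptor dectin-1, counted 72, 86 and 56 in the control and 2110, 920 and 2214 in the cKO libraries, a rise of 1.90 ± 0.20 (adjusted p = 3.25e-06). The lectin receptor gene Clec4n rose by 1.83, and Fcgr4, an IgG receptor of non-classical monocytes, by 2.41. The smallest rises among the 35 members were those of the lysozymes. Lyz2, the lysozyme of mouse monocytes, macrophages and neutrophils, counted 159, 154 and 126 in the control and 4239, 1103 and 3564 in the cKO libraries. It rose by 1.57 ± 0.25 (adjusted p = 0.00018), from 18.4 ± 2.58 to 54.7 ± 19.5 CPM. Lyz1, the lysozyme best known from Paneth cells, counted 26, 38 and 15 in the control and 780, 217 and 518 in the cKO libraries, a rise of 1.52 ± 0.34 (adjusted p = 0.00199). Lyz1 and Lyz2 share 21.9% of the 50-base words at their transcript ends, so some Lyz1 counts may belong to Lyz2.

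**Figure D2:**
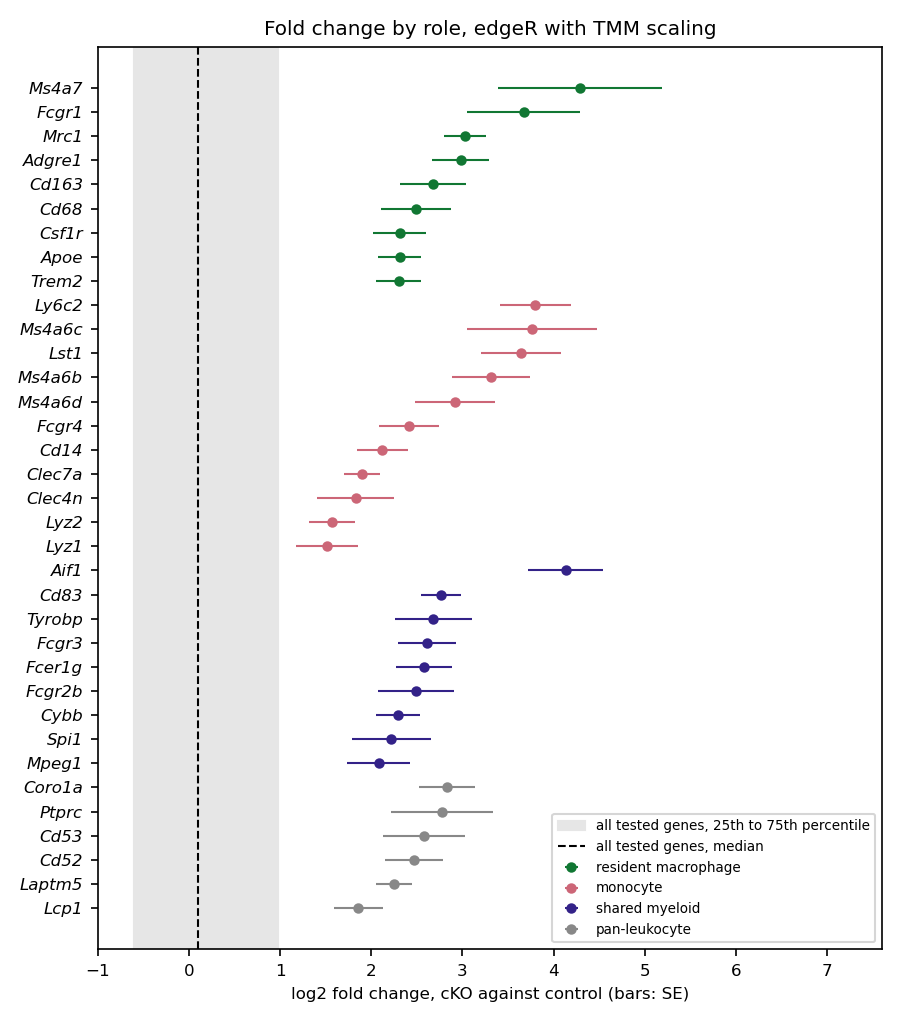
Log2 fold change of cKO against control (points) with its standard error (bars) for the 35 genes, coloured by role, beside the median (dashed line, 0.10) and the 25th to 75th percentile (grey band, -0.60 to 0.98) of all 13132 tested genes. All 35 points lie right of the band; Lyz1 and Lyz2 (1.52 and 1.57) lie nearest to it and Ms4a7, Aif1 and Ly6c2 farthest (4.29, 4.13 and 3.80).

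The genes shared by myeloid cells followed the same direction. Cybb, the catalytic subunit of the phagocyte NADPH oxidase, counted 143, 206 and 107 in the control and 7078, 2338 and 5271 in the cKO libraries. It rose by 2.29 ± 0.24 (adjusted p = 5.65e-06), from 19.0 ± 5.34 to 92.6 ± 24.7 CPM. The adapters that carry the signal of activating receptors rose together. Fcer1g went from 74, 94 and 65 counts to 4786, 1048 and 3735, a rise of 2.58 ± 0.31 (adjusted p = 6.89e-05), and Tyrobp, which encodes DAP12, from 46, 59 and 22 to 2758, 599 and 2234, a rise of 2.68 ± 0.42 (adjusted p = 0.000815). Among the low-affinity IgG receptors, the activating Fcgr3 (37, 55 and 30 counts against 2461, 582 and 2049) rose by 2.61 ± 0.32 (adjusted p = 4.02e-05), and the inhibitory Fcgr2b by 2.49. Their groups did not overlap, and the difference between these receptors was smaller than either standard error. Fcgr2b, Fcgr4 and Fcgr3 lie side by side on chromosome 1 (170958617 to 171064935), with 0 shared 50-base words at their transcript ends.

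Aif1, the calcium-binding protein IBA1 that is used to stain macrophages, counted 5, 16 and 22 in the control and 2654, 686 and 1735 in the cKO libraries, a rise of 4.13 ± 0.41 (adjusted p = 1.97e-05). Cd83, an activation marker of dendritic and B cells that macrophages also carry, counted 30, 43 and 37 in the control and 2009, 791 and 2151 in the cKO libraries, a rise of 2.76 ± 0.22 (adjusted p = 6.71e-07). Spi1 itself rose by 2.22 ± 0.43 (adjusted p = 0.0018), from 18, 50 and 19 counts to 1420, 304 and 1024. Control replicate 2 held most of its control counts, and the groups did not overlap. Mpeg1, which encodes the pore-forming protein perforin-2, rose by 2.08.

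The 6 pan-leukocyte genes rose by 1.86 to 2.83. Laptm5, a lysosomal membrane protein of blood cells, counted 178, 162 and 154 in the control and 7290, 2511 and 5830 in the cKO libraries, a rise of 2.25 ± 0.20 (adjusted p = 1e-06). Lcp1, the actin bundler L-plastin, went from 133, 123 and 102 counts to 4471, 1077 and 3370, a rise of 1.86 ± 0.27 (adjusted p = 0.000143). The surface glycoprotein gene Cd52 went from 82, 91 and 59 to 4555, 996 and 3277 counts, a rise of 2.47 ± 0.32 (adjusted p = 0.000129). Ptprc, the phosphatase CD45 that marks nearly all leukocytes, counted 44, 35 and 10 in the control and 2087, 437 and 1698 in the cKO libraries. It rose by 2.78 ± 0.56 (adjusted p = 0.00645), with the lowest control value in replicate 3. Coro1a, an actin regulator of leukocytes, counted 23, 17 and 10 in the control and 1129, 370 and 880 in the cKO libraries, a rise of 2.83 ± 0.31 (adjusted p = 5.91e-06). The tetraspanin gene Cd53 rose by 2.58. Coro1a, Lcp1 and Cd52 share exon sequence with genes on the other strand, as do Csf1r, Ms4a6b, Ms4a6c and Fcgr2b.

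To compare genes without any library scale, each member's counts were divided by the summed counts of the 6 pan-leukocyte genes in the same library. That sum was 484, 449 and 346 in the control libraries and 20599, 5597 and 16131 in the cKO libraries. On this measure 24 of 35 members overlapped between the groups, 8 were higher in each cKO library and 3 lower. Of all tested genes, 2.66% were higher without overlap and 72.4% lower, since most genes did not rise with the leukocyte genes. An exact permutation test of a single gene cannot go below p = 0.1 with 3 libraries against 3, so these are descriptions.

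Lyz2 stood at 32.9, 34.3 and 36.4% of the pan-leukocyte counts in control and at 20.6, 19.7 and 22.1% in cKO. The lysozyme was thus lower per leukocyte count in each cKO library though it rose as a level. Lyz1 did likewise (4.34 to 8.46% against 3.21 to 3.88%), and so did Lcp1 (27.4 to 29.5% against 19.2 to 21.7%). Mrc1 went the other way, from 12.0, 12.7 and 13.3% to 19.3, 22.5 and 22.4%. Adgre1 stood at 6.94 to 10.5% in control and 13.1 to 14.2% in cKO, Ly6c2 stood at 1.78 to 4.34% against 6.86 to 8.59%, and Ms4a6b at 2.89 to 3.12% against 4.31 to 6.65%. Aif1 (1.03 to 6.36% against 10.8 to 12.9%), Ms4a6c (1.11 to 6.40% against 8.81 to 13.9%) and Lst1 (0.62 to 3.56% against 4.93 to 5.57%) were higher too, from few control counts. Coro1a, itself in the denominator, stood at 2.89 to 4.75% against 5.46 to 6.61%. Csf1r, by contrast, overlapped between the groups at 28.3, 27.6 and 31.2% in control and 28.9, 25.1 and 32.5% in cKO, and Cybb, Trem2 and Apoe overlapped as well.

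**Figure D3:**
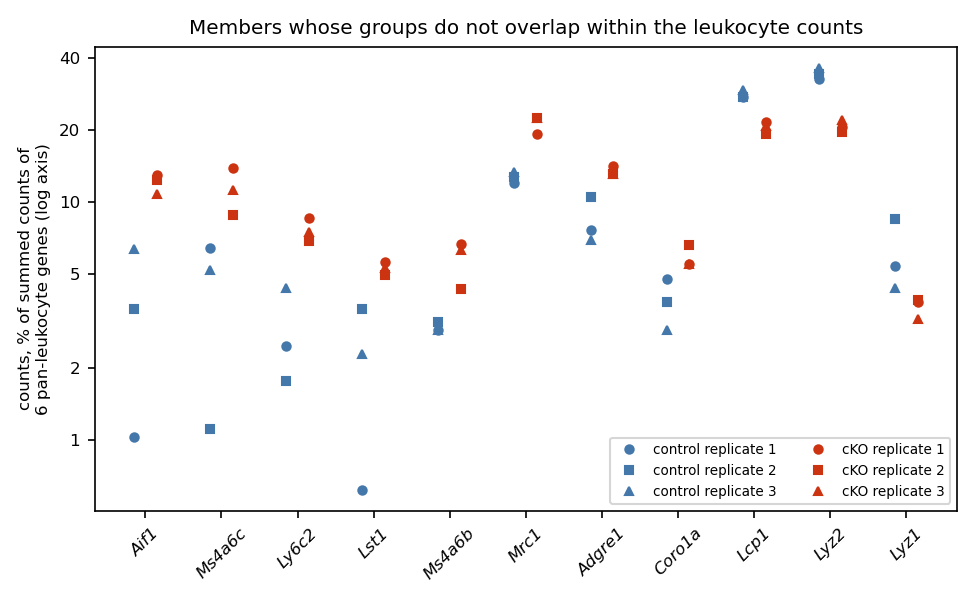
Counts of the 11 members whose groups did not overlap on this measure, as a percent of the summed counts of the 6 pan-leukocyte genes in the same library (log axis), for control (blue) and cKO (red) libraries with marker shapes giving the replicate. From Aif1 to Coro1a, the 8 genes on the left, the cKO points are higher; for Lcp1, Lyz2 and Lyz1 they are lower, and for Lyz2 the cKO points sit between 19.7 and 22.1%.

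The balance of resident macrophage to monocyte genes depended on Apoe and on the lysozymes. With all genes kept, resident counts were 1782, 1887 and 1609 and monocyte counts 459, 464 and 336 in control. In cKO, resident counts were 75845, 26228 and 83433 and monocyte counts 19301, 5237 and 16556, and the ratios overlapped between the groups. With Apoe left out, resident counts were 0.736, 0.698 and 0.842 times the monocyte counts in control and 1.03, 0.946 and 1.01 times in cKO, so the groups did not overlap. With Lyz1 and Lyz2 left out as well, the ratios were 1.23, 1.19 and 1.45 in control and 1.39, 1.27 and 1.34 in cKO, and the groups overlapped. Median fold changes were 2.68 in the resident group and 2.41 in the monocyte group, and genes within each group differed by more than these medians did.

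The cKO libraries were not alike. In 35 of 35 members the lowest cKO level was that of replicate 2, at a median of 0.496 times the mean of replicates 1 and 3 (0.285 for Fcgr1, the lowest, to 0.766 for Clec7a, the highest). The same count was not made for all tested genes, so a trait of the members and one of that library cannot be told apart here. Acinar genes ran the other way among the cKO libraries. As a share of library totals, 14 of them took 25.4 to 26.6% in control, 23.2% in cKO replicate 2, and 8.37% and 11.7% in cKO replicates 1 and 3. On the TMM scale they summed to 755000 to 863000 CPM in control, 119000 in cKO replicate 2, and 21400 and 32000 in cKO replicates 1 and 3. These 14 leave out abundant amylase genes such as Amy2a5, at a mean of 497000 CPM in control and 14700 CPM in cKO. Without cKO replicate 2 the median fold change of the members was 2.89, and 35 of 35 still rose. With cKO replicate 2 kept and replicate 1 left out, it was 2.35.

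Other genes of the same cells, not among the members, moved in the same direction with exceptions. Of 16 further resident macrophage genes tested, 13 rose and 1 fell (2 fell without cKO replicate 2), with a median of 2.58. The complement genes C1qb (3.13 ± 0.23) and C1qa (2.01 ± 0.21), which resident macrophages make in quantity, rose. Sepp1, the selenium carrier made by many tissues, fell by 1.57 ± 0.19 on the TMM scale and had a log2 fold change of 1.73 on library totals. It made up 569 of the list's mean 721 CPM in control and 192 of 1000 CPM in cKO. The summed list overlapped between the groups, at 662 to 813 CPM in control and 759 to 1200 CPM in cKO. Of 14 further monocyte genes tested, 12 rose and 1 fell (median 1.75). Plac8 (3.03 ± 0.45) and the clotting factor gene F13a1 (2.65 ± 0.23) rose. So did the trafficking receptor gene Ccr2 (3.13 ± 0.40). It was named for its level among the cytokine, chemokine and sensor genes below, not among these monocyte genes. Msrb1, a selenoprotein found in many cells, fell by 2.09 ± 0.17, with a log2 fold change of 1.13 on library totals. These are the same contrast in the same libraries and give no independent support.

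Genes that work with the members rose in most cases. Of 17 Fc receptor and ITAM signalling genes 16 rose (median 2.31), among them the kinase gene Lyn (1.45 ± 0.24), the adapter gene Fyb (2.34 ± 0.33) and the inhibitory receptor gene Sirpa (2.07 ± 0.27). The partners of Cybb in the NADPH oxidase rose in 5 of 5 cases, Cyba by 1.5 ± 0.19, Ncf1 by 2.04 ± 0.24 and Rac2 by 2.57 ± 0.27. Of 17 myeloid transcription factors 14 rose and 1 fell (median 2.05), with Maf, a factor of resident macrophages, at 2.90 ± 0.21, Klf4 at 1.85 ± 0.17 and Nr4a1 at 1.96 ± 0.19. The factor that fell was Cebpa (-0.79 ± 0.23, named after its value was seen), a regulator of early myeloid cells that other tissues express too. It counted 70, 81 and 73 in the control and 380, 150 and 319 in the cKO libraries, so as a share of library totals it was higher in cKO. Among 14 tested cytokine, chemokine and sensor genes of the myeloid system 12 rose and 0 fell, including the monocyte chemoattractant Ccl2 (2.91 ± 0.38) and the receptor gene Csf2ra (1.77 ± 0.22). Leukocyte cytoskeleton genes rose in 14 of 14 cases (median 2.45), and lipid-handling genes of phagocytes in 13 of 14 with a lower median of 1.34.

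Markers of other cells moved in these libraries as well. Summed fibroblast and stellate cell markers went from 732 to 829 CPM in control to 3590 to 5110 CPM in cKO, and 10 of 12 genes rose, Col3a1 by 2.71 ± 0.25. Neutrophil markers summed to 10.6 to 14.8 CPM in control and 38.8 to 70.0 CPM in cKO, 9 of 11 tested genes rising, S100a8 by 2.44 ± 0.32. Dendritic cell markers went from 8.38 to 15.8 CPM to 50.1 to 89.4 CPM, and 7 of 9 tested genes rose and 0 fell. Clec10a, which macrophages also express, rose by 3.19 ± 0.26 and made up 52.8 of the mean 70.7 CPM in cKO. Without it the sum was 2.54 to 8.64 CPM in control and 14.1 to 19.8 CPM in cKO, 3.51 times as high in place of 6.49 times. T and NK cell markers stayed low, at 0.762 to 6.78 CPM and 9.05 to 14.5 CPM, and 5 of 8 tested genes rose. Only 1 rose without control replicate 3, 2 without control replicate 2 or cKO replicate 3, and 3 without control replicate 1 or cKO replicate 1. B and plasma cell markers summed to 4.48 to 10.5 CPM and 28.0 to 34.3 CPM, 4 of 9 tested genes rising. Jchain, which joins antibody chains in plasma cells, rose by 3.05 ± 0.23 from 2.14 ± 0.32 to 17.7 ± 0.751 CPM, so it made up most of the cKO sum. Mzb1 and Cd79b, at 1.10 ± 0.48 and 1.42 ± 0.69, did not pass the test. Pax5, a defining factor of B cells named after its value was seen, had 0 counts in 6 of 6 libraries. Mast cell markers went from 12.8 to 17.0 CPM to 35.3 to 40.6 CPM, with 2 of 5 rising and 1 falling, and 1 rose without any single library other than control replicate 2. The higher mast cell sum rested on Hdc, which rose by 2.07 ± 0.19. It made up 7.52 of the mean 14.5 CPM in control and 31.6 of 38.2 CPM in cKO. Tpsb2 rose by 1.61 ± 0.60, and Cpa3 (-0.16 ± 0.40) did not pass the test. Endothelial markers summed to 61.2 to 68.7 CPM in control and 77.0 to 84.4 CPM in cKO, with 2 of 10 rising and 3 falling (1 without control replicate 3). Among those, Kdr fell by 1.37 ± 0.21 and had a log2 fold change of 1.85 on library totals. The higher endothelial sum rested on Ly6c1, which may hold reads of Ly6c2. Without Ly6c1 the other 9 genes summed to 44.7 to 54.9 CPM in control and 29.8 to 47.1 CPM in cKO, so the mean was 0.751 times the control mean and the groups overlapped. On library totals the sum without Ly6c1 was higher in each cKO library.

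The labelled cell type was plain in the counts, since 14 acinar genes summed to 755000 to 863000 CPM in control and 21400 to 119000 CPM in cKO on the TMM scale. All 14 fell, among them Ctrb1 (-3.68 ± 0.92), Cela2a (-3.83 ± 0.95) and Cela1 (-3.41 ± 0.82). On library totals 9 genes of all the non-member lists together fell, so these 14 did not all fall on that scale. The part that the mix of cells in each preparation had in the members' rises was not tested.

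**Figure D4:**
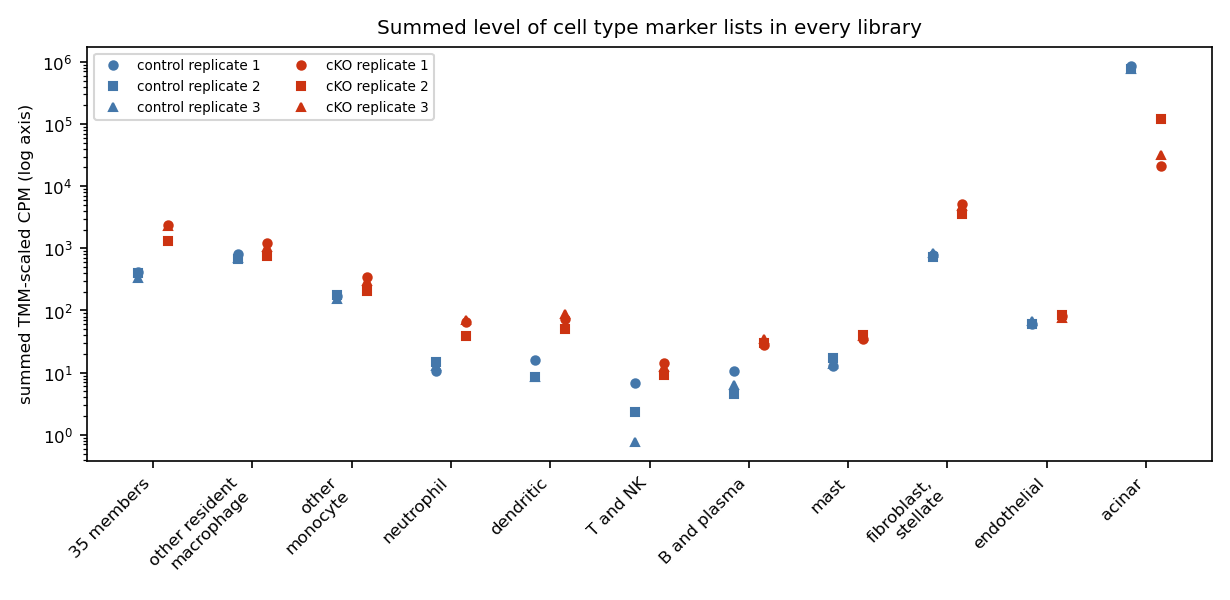
Summed TMM-scaled CPM (log axis) of the 35 members and of marker lists of 10 cell types without the members, in each control (blue) and cKO (red) library, marker shapes giving the replicate. The members, fibroblast, neutrophil and dendritic lists are higher in each cKO library, and the acinar list is lower in each cKO library. The endothelial list goes from 61.2 to 68.7 CPM to 77.0 to 84.4 CPM through Ly6c1 (without it 44.7 to 54.9 against 29.8 to 47.1 CPM). The other resident macrophage list overlaps between the groups, at 662 to 813 CPM in control and 759 to 1200 CPM in cKO. Sepp1, which fell, made up 569 of its mean 721 CPM in control and 192 of 1000 CPM in cKO, while 13 of its 16 tested genes rose.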

How the data were processed

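Per the labels, 3' tag libraries were made with a Lexogen QuantSeq kit. The authors deposited raw counts per gene symbol, 1 table per library, not normalized. The submitters' processing notes name Bowtie2, edgeR, mm10 and GRCm38, without versions or roles. The counter, its annotation, its strand setting and its handling of reads that match several genes are not stated there, and no molecular identifiers are described, so intervals and floors cover counting error only. The floor behind a listed 0 (3 counts) was 0.353 to 0.399 CPM in the control libraries and 0.05 to 0.0905 CPM in the cKO libraries.

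All 23282 rows entered 1 fit in edgeR 4.0.16 (R 4.3.3): filterByExpr (minimum count 10, minimum total 15), TMM, robust glmQLFit, glmQLFTest, Benjamini-Hochberg adjustment over all tested genes, threshold 0.05. The standard error is the fold change divided by the square root of F. The fit was tested on simulated data. Members, roles and lists were chosen with earlier results of these data known. Full statistics are given for up to 4 members per role with the highest mean CPM and the 2 with the largest fold (Lyz1 and Spi1 were added), and otherwise the fold. From each other list, genes were named among its 3 most abundant, besides Cebpa, Pax5, Cxcr2, Zbtb46, Camp and Flt3. Sums without Ly6c1 and without Clec10a were chosen after seeing the data. Coordinates, exon overlaps and shared 50-base words of transcript ends (last 300 bases) come from GENCODE M21 (GRCm38). Same-numbered libraries did not deviate together, so the block is an alternative. DESeq2 1.42.0, other scales and filters, thinning and leaving out each library were also tried.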

Additional observations from a re-analysis of the deposited data

How the results depend on the processing

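All 35 members rose under each alternative in which they were tested: library totals, RLE or upper quartile factors, DESeq2, no filter, thinning to 1 effective size, the replicate block and leaving out any 1 library (largest adjusted p 0.0389, Ms4a7 with no filter). With the replicate number as a block 35 members, and of all genes 2884, rose and 2505 fell; same-numbered libraries correlated at -0.02, -0.05 and -0.02 in their deviations, and no library pair exceeded 0.05. With at least 10 CPM in 3 libraries 4183 genes were tested in place of 13132. Of these, 23 of 23 members, 1442 of all genes and 62 of 81 listed non-member genes rose while 1420 genes fell. The main fit gave 35 members, 3152 of all genes and 133 of 184 listed non-members that rose, and 2716 genes that fell. On library totals the member median was 5.98, 12654 genes rose and 53 fell, 9 listed non-members fell in place of 21, and Kdr (1.85), Cpa3 (3.09), Msrb1 (1.13) and Sepp1 (1.73) changed sign, since that scale lifts nearly every gene. Leaving out 1 library gave member medians from 2.35 to 2.89. T and NK cell calls were less steady: 5 genes rose, but 1 to 3 without any 1 library other than cKO replicate 2, 3 with the block and 2 when thinned, and B and plasma cell calls went from 4 to 2 when thinned. Mast cell calls went from 2 to 1 without any 1 library other than control replicate 2. Endothelial calls that fell went from 3 to 1 without control replicate 3. Summed endothelial markers were 1.27 times as high in cKO but 0.751 times without Ly6c1, and dendritic markers 6.49 times but 3.51 times without Clec10a. Few control counts limit the sizes of the rises in 14 members.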
